A study of Rattus norvegicus with 12 samples.

Results

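The genes described here encode the machinery that fuses synaptic vesicles with the presynaptic membrane, together with their close relatives. They were chosen by symbol, as synaptotagmins, synapsins, SV2 proteins, VAMPs, syntaxins, syntaxin-binding proteins, SNAPs, Rab3 GTPases, RIMs, Unc13 proteins, complexins and synaptogyrins with at least 60 estimated reads summed over the 6 RNA libraries. The rule found 72 of the 26949 genes in the table. A further 5 genes matched by symbol but had too few reads: Syngr4 with 55, Syt15 with 38, Syt8 with 17, Cplx4 with 9 and Stx19 with 7, against 77 for Vamp5 and 95 for Stx11 just inside the limit. The libraries came from hippocampus of male rats held for 4 weeks under chronic intermittent hypoxia (CIH, in which oxygen falls and recovers over and over, as in sleep apnoea) or under normoxia (control), with 3 libraries in each group. Strain, age and the number of animals behind each library are not given in the labels, so p-values cover only the variation among these libraries, which may be technical. Library totals ran from 17170943 to 21941173 estimated reads in the CIH group and from 19713519 to 21510725 in the control group.

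Release begins when a vesicle SNARE (VAMP) zips together with the plasma membrane SNAREs, a syntaxin and SNAP-25. Sec1/Munc18 proteins, Munc13 (Unc13) and RIM prepare that complex, complexin holds it, and a synaptotagmin with bound calcium triggers fusion. Rab3, synapsin, SV2 and synaptogyrin sit on the vesicle and govern its supply and readiness. The symbol families also hold SNAREs of endosomes, lysosomes, the Golgi and non-neuronal cells. The syntaxins, VAMPs and SNAPs outside the main synaptic set, 20 of the 72 members, are grouped here as SNAREs of other membranes, whatever membrane each serves. Snap91 is not among them, as it encodes AP180, a clathrin adaptor that shares only the symbol stem with the SNAREs.

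Markers of neurons were present in every library. Gad1, the GABA-synthesising enzyme of interneurons, stood at 75.5 to 85.9 TPM (the authors' transcript level, scaled for transcript length and depth) in CIH and 82.3 to 105 TPM in control. The make-up of the libraries differed within the groups. The summed level of 8 dentate granule markers was 222, 498 and 713 TPM in CIH and 878, 474 and 602 TPM in control, and the granule cell gene Prox1 was at 8.77 TPM in CIH 1 against 35.5 TPM or more in each of the other libraries. The summed level of 8 oligodendrocyte markers was 7418, 7959 and 10809 TPM in CIH and 11609, 4446 and 4209 TPM in control. CIH 1 was thus lowest in granule cell RNA, and CIH 3 and control 1 were highest in myelin RNA. Of the dentate markers, Tdo2 and Lct were listed at 0 in at least 1 library. In bulk tissue, fewer cells of a type and less RNA per cell cannot be told apart.

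The 72 genes together held 10657, 12165 and 10573 TPM in CIH and 10236, 11586 and 12262 TPM in control, that is 11131 ± 896 TPM in CIH and 11361 ± 1031 TPM in control (SD, n = 3 each), with overlapping groups. Expression was concentrated in a few genes: 23 members averaged above 100 TPM over the 6 libraries, 10 were under 10 TPM, and the 14 highest held 73.3% of the summed level. Syt1, the calcium sensor for fast synchronous release, led at a mean of 1030 TPM. Snap25 and Vamp2, which encode the neuronal SNAREs, followed at 970 and 925 TPM, and the complexin gene Cplx2 at 841 TPM. Syt1 stood at 817, 1206 and 837 TPM in CIH and 836, 1271 and 1210 TPM in control, so the spread of libraries within each group covered the gap between the leading genes and their order is not settled. At the other end stood Stx11, a syntaxin of immune cells, at 0.87 TPM, Unc13d, which serves granule release in blood cells, at 1.12 TPM, and Stxbp2, the Munc18 of non-neuronal cells, at 2.05 TPM.

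**Figure D1:**
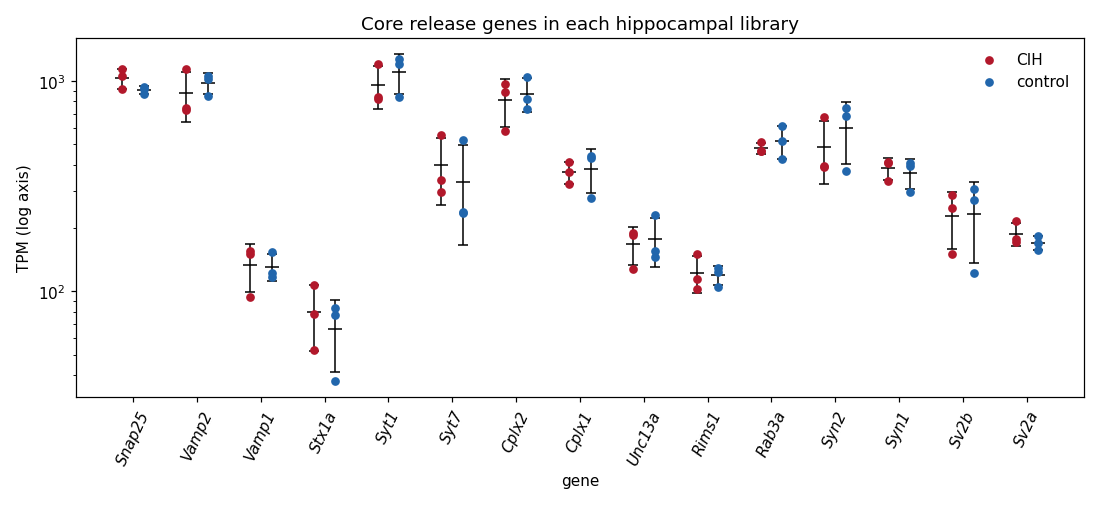
Level of 15 core release genes in TPM on a log axis, with each point 1 library (red CIH, blue control) and the black bar the mean and SD of 3 libraries. Points of the groups interleave in most genes, and the leading genes Syt1, Snap25 and Vamp2 sit at the top while Stx1a spans from 37.5 TPM in control 1 to 108 TPM in CIH 1.

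Within each family most of the RNA came from 1 or 2 paralogues. Vamp2 held 88.6%, 88.1% and 83.2% of the summed Vamp1 and Vamp2 level in CIH and 87.9%, 89.3% and 87.4% in control. These shares are of TPM, a level per transcript length. Syt1 held 95.6% to 99.1% of the summed Syt1, Syt2 and Syt9 level in CIH and 98.1% to 98.8% in control. Of the 4 Munc13 genes, Unc13a held 70.2% to 84.9% in CIH and 76.8% to 84.0% in control. The families with 2 major paralogues were less even across libraries. Cplx1 held 41.2%, 29.3% and 24.9% of the complexin level in CIH and 21.0%, 36.8% and 34.7% in control. Sv2a held 45.1%, 36.6% and 51.7% of the SV2 level in CIH and 53.1%, 37.3% and 36.3% in control. Syn1 held 49.5%, 37.4% and 44.7% of the synapsin level in CIH and 42.7%, 35.9% and 35.0% in control. In all 11 families compared, each paralogue's share overlapped between CIH and control.

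**Figure D2:**
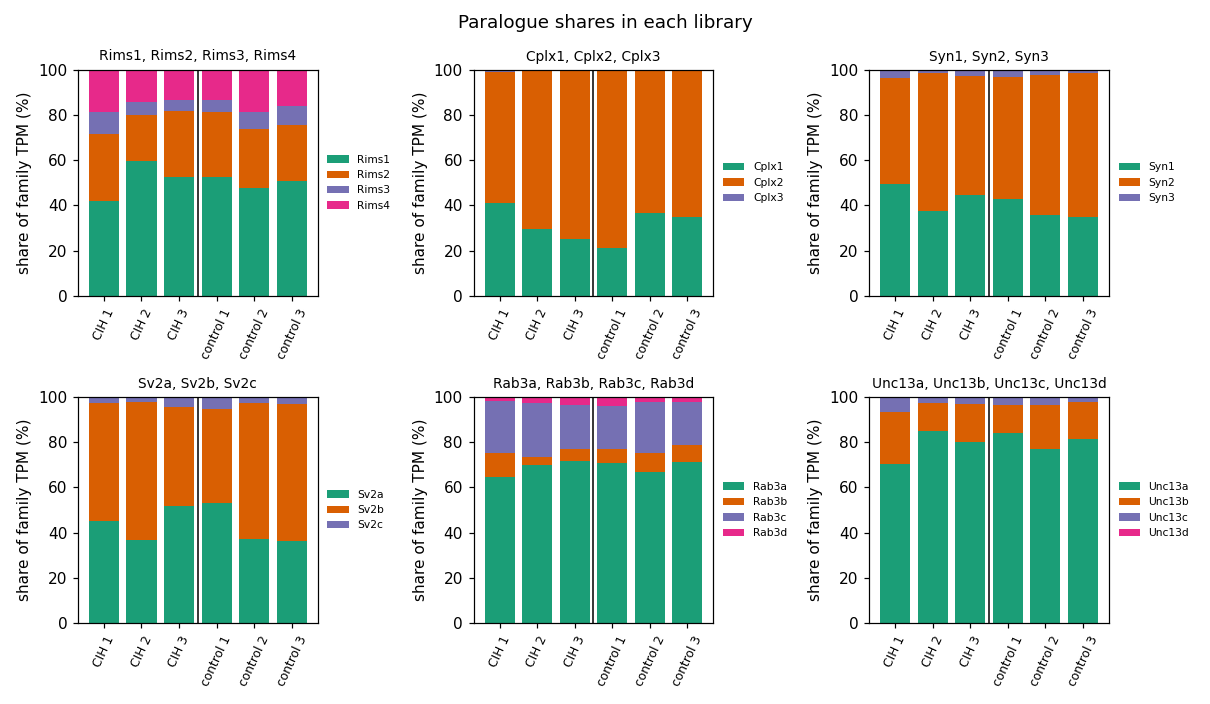
Share of each paralogue in its family's summed TPM, in percent, for 6 families and 6 libraries, with CIH left of the vertical line and control right of it. CIH 3 and control 1 have the smallest shares of Cplx1 and the largest of Sv2a, and no share separates the groups.

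The first question was which release genes differ in amount between CIH and normoxia. None of the 72 passed the edgeR quasi-likelihood test after Benjamini-Hochberg adjustment over all 17935 genes tested (adjusted p = 1.00 for each), and none passed with DESeq2, which gave an adjusted p to 71 of them, or with limma on TPM. The edgeR test called 0 of all genes (0%), DESeq2 called 9 and limma on TPM called 1. At an unadjusted p under 0.05 there were 3 members, or 4.17%, against 1.78% of all genes. They were Syt6, Syngr2 and Snap23. DESeq2 gave 3 as well, against 1.64% of all genes, but these were Syt6, Syt9 and Syt2, so that only Syt6 was in both. Of the 3 by edgeR, 2 were higher in CIH, where 0.914% of all genes were, and 1 was lower, where 0.864% were. The median log2 fold change, CIH over control, was 0.01 for the members and 0.00 for all genes tested, with 40 members above 0 and 32 below. Differences were small, with 57 members within 0.25 log2 units of 0. In simulated data the edgeR test missed most genes changed by 1 log2 unit, recovering 29 of 100. It recovered 83 of 100 changed by 2 log2 units. The standard error (SE) of a member's log2 fold change ran from 0.09 to 1.09 with a median of 0.19. Values in CPM are counts scaled to library size with TMM factors, the scale of this test.

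Promoter windows from RefSeq (build GRCr8, 250 bases before to 50 after the annotated start) were matched by gene ID for 55 of the 72 genes. The windows of the 3 members with an unadjusted p under 0.05 are shown because the treatment is hypoxia and the core letters bound by hypoxia-inducible factors (ACGTG or GCGTG, either strand) occur in each; capitals mark those letters.
Syt6 (chr2:193781226-193781525, plus strand): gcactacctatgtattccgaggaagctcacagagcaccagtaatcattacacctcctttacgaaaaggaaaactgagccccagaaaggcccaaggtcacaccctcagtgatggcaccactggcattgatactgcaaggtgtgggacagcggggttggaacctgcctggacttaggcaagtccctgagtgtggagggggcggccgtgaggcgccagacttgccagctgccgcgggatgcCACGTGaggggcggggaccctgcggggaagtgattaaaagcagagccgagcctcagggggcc
Syngr2 (chr10:103528379-103528678, plus strand): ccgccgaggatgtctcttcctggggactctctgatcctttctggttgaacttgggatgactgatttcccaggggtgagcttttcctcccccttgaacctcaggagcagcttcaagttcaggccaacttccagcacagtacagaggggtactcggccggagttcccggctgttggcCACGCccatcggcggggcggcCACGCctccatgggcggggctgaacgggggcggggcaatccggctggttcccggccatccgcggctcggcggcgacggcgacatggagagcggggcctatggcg
Snap23 (chr3:127967636-127967935, plus strand): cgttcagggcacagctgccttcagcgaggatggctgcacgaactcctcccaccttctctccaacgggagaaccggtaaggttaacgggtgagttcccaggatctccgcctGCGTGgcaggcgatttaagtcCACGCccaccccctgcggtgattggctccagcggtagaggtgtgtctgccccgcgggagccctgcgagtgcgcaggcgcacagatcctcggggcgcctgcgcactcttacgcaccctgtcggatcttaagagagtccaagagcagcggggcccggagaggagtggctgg
In Syt6 the match is the palindrome CACGTG, read on both strands. Such core letters are common. They occurred in 33 of 55 member windows, in 59.5% of 12166 windows of tested genes and in 42.9% of all 27457 RefSeq windows, and the GC content had a median of 62.7% in members and 60.3% in tested genes. A match describes the letters only.

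The windows of Vamp2 and Syn1, which encode the main vesicle SNARE and an abundant synapsin, are shown for sites of EGR factors and CREB, regulators of activity-dependent transcription. Capitals mark EGR sites (GCGTGGGCG or GCGGGGGCG, either strand), the CREB element (CRE, TGACGTCA) and the hypoxia core letters, which the first EGR form contains.
Vamp2 (chr10:54292539-54292838, plus strand): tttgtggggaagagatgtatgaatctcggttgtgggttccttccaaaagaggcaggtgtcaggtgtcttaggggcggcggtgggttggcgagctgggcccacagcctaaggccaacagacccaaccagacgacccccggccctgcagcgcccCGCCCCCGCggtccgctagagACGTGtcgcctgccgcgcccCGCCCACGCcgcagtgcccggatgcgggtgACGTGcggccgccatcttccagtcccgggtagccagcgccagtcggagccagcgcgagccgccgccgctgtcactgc
Syn1 (chrX:3725495-3725794, plus strand): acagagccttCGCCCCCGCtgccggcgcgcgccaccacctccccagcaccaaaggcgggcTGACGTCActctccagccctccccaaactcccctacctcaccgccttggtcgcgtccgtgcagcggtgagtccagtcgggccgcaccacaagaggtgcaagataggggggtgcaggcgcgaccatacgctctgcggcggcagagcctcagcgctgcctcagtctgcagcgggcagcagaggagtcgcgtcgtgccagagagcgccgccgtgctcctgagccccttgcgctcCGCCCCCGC
An EGR site occurred in 8 of 55 member windows (14.5%), in 6.07% of tested genes and in 3.31% of all windows. Vamp2 held 2 EGR matches, and Syn1 held 2 EGR matches and 1 CRE. The CRE occurred in 2 member windows (3.64%), Syn1 and Vamp1, against 2.98% of tested genes and 1.91% of all windows. No member window held the RE1 element of the repressor REST in its strict form, which was in 0.099% of windows of tested genes.

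All 5 SNAREs of the synapse had edgeR fold changes above 0 with none past the test, but Vamp2 was below 0 with limma on TPM, and Vamp1, Vamp2 and Stx1a were below 0 when 1 library was left out. Snap25 stood at 1023, 998 and 832 CPM in CIH and 802, 821 and 838 CPM in control, a log2 fold change of 0.21 (SE 0.13). The groups overlapped, with CIH 1 the highest library. Stx1a, a syntaxin of the presynaptic membrane, stood at 108, 81.5 and 52.4 CPM in CIH and 37.8, 78.9 and 82.7 CPM in control, one of 0.28 (SE 0.36). Vamp2 stood at 708, 635 and 588 CPM in CIH and 525, 663 and 657 CPM in control, one of 0.07 (SE 0.15). Stx1a and Vamp2 overlapped between the groups, with control 1 the lowest library for both. Vamp1, the less abundant vesicle SNARE, stood at 122, 206 and 193 CPM in CIH and 153, 160.1 and 196 CPM in control, one of 0.04 (SE 0.22), again with overlap.

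Among the calcium sensors the abundant genes sat near 0 and the rare ones spread widely. Syt1 stood at 1181, 1502 and 1292 CPM in CIH and 1177, 1349 and 1545 CPM in control, a log2 fold change of -0.03 (SE 0.16). Syt7, a slow sensor linked to asynchronous release and facilitation, stood at 535, 528 and 829 CPM in CIH and 819.6, 433 and 386 CPM in control, one of 0.21 (SE 0.33). Both groups held 1 library with Syt7 far above the rest, CIH 3 and control 1. Syt6, a calcium-binding synaptotagmin whose promoter window with CACGTG is printed above, had the smallest edgeR p of the 72. It stood at 3.70, 7.49 and 6.22 CPM in CIH and 9.69, 12.4 and 14.6 CPM in control, from 66 to 158 reads in CIH and 195 to 314 reads in control. Every CIH library lay below every control, with a log2 fold change of -1.07 (SE 0.29, edgeR adjusted p = 1.00). Leaving out any library kept it between -1.30 and -0.84, and its adjusted p was 0.595 with DESeq2. Beside it, the summed level of 8 interneuron markers, all measured and none at 0, was 608 to 687 TPM in CIH and 694 to 823 TPM in control. Each of the 8 overlapped between the groups when taken singly. Sst, the most abundant of them, stood at 161 to 211 TPM in CIH and 176 to 295 TPM in control, while Pvalb ran the other way, at 102 to 132 TPM in CIH and 79.3 to 105 TPM in control. The part of these markers in the Syt6 values was not tested.

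Syt9, grouped here with Syt1 and Syt2, stood at 1.51, 2.04 and 1.47 CPM in CIH and 1.14, 5.94 and 5.10 CPM in control. These were 27 to 43 reads in CIH and 23 to 119 reads in control. Control 1 lay with the CIH libraries. The log2 fold change of -1.27 (SE 0.57) became -1.71 without control 1 and -0.90 without control 2. Syt2, the fast sensor best known from hindbrain and from fast-spiking interneurons, stood at 40.6, 9.91 and 22.3 CPM in CIH and 16.7, 7.98 and 9.59 CPM in control, one of 1.08 (SE 0.52). The groups overlapped, with CIH 1 highest, and without CIH 1 the Syt2 value was 0.49. The 7 measured synaptotagmins without calcium-dependent lipid binding (Syt4, Syt11, Syt12, Syt13, Syt14, Syt16 and Syt17) ran from -0.56 to 0.20, and the groups overlapped in each.

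None of the complexin, Unc13 and Rims genes passed the edgeR test, and their CPM overlapped between the groups. Cplx1 stood at 423, 394 and 331 CPM in CIH and 291, 449 and 449 CPM in control, a log2 fold change of -0.05 (SE 0.20). Cplx2 stood at 756, 1185 and 1274 CPM in CIH and 1367, 968 and 1082 CPM in control, one of -0.09 (SE 0.24). In both complexins the groups overlapped throughout. Cplx3, a complexin of retina and of deep cortical neurons, had 312, 28 and 28 reads in CIH and 23, 56 and 19.3 reads in control. Its log2 fold change of 2.06 (SE 1.09), the highest of the 72, rested on CIH 1 and was -0.23 without it. The summed level of 8 cortical and subcortical markers, all measured and none at 0, was 306 TPM in CIH 1, 177 and 200 TPM in the other CIH libraries and 158 to 200 TPM in control; its part in the Cplx3 values was not tested.

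Unc13a, the main Munc13 of glutamatergic terminals, stood at 219, 349.5 and 337 CPM in CIH and 364, 267 and 274 CPM in control, a log2 fold change of 0.00 (SE 0.22). Unc13b, its minor partner, stood at 76.4, 52.7 and 62.8 CPM in CIH and 53.6, 58.4 and 44.1 CPM in control, one of 0.30 (SE 0.17). Limma on TPM, a scale that divides by transcript length, gave 0.06 for Unc13b at either pseudocount. The implied length of Unc13b, given below, was longer in CIH, so the 2 readouts are not separate. Neither gene separated the groups. The scaffold gene Rims1 stood at 393, 528 and 353 CPM in CIH and 369, 419.9 and 439.8 CPM in control, one of 0.05 (SE 0.18). The Rims1 groups overlapped too. Of the 8 Unc13 and Rims genes, 5 lay above 0 and 3 below, with none past the test.

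The vesicle-associated genes likewise gave no call. Syn1 stood at 644, 660.2 and 519 CPM in CIH and 469, 624 and 635 CPM in control, a log2 fold change of 0.08 (SE 0.17). Syn2 stood at 358, 625 and 359 CPM in CIH and 339, 628 and 673 CPM in control, one of -0.29 (SE 0.33). Syn2 fell into a low trio (CIH 1, CIH 3 and control 1) and a high trio that cut across the groups. Sv2b, the SV2 paralogue of many excitatory terminals, stood at 481, 582 and 332 CPM in CIH and 233, 588 and 651 CPM in control, one of -0.08 (SE 0.39). CIH 3 and control 1 were again the lowest for Sv2b. Sv2a, the target of the antiepileptic drug levetiracetam, stood at 465, 373 and 383 CPM in CIH and 341, 369 and 389.7 CPM in control, one of 0.15 (SE 0.13). Rab3a, the main vesicle Rab, stood at 286, 326 and 286 CPM in CIH and 264, 325 and 377 CPM in control, one of -0.11 (SE 0.16). Both genes overlapped between the groups. Syngr2, the synaptogyrin of non-neuronal cells, stood at 7.45, 7.73 and 8.60 CPM in CIH and 6.26, 6.39 and 5.61 CPM in control. The Syngr2 groups did not overlap, with a log2 fold change of 0.38 (SE 0.15, edgeR adjusted p = 1.00).

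Stxbp2 stood at 3.25, 1.99 and 2.53 CPM in CIH and 2.83, 2.54 and 1.72 CPM in control, and Unc13d at 1.29, 2.32 and 1.31 CPM in CIH and 1.99, 2.49 and 1.95 CPM in control. Stx11 stood at 0.39, 0.76 and 0.76 CPM in CIH and 0.89, 0.70 and 1.16 CPM in control. It had 7 to 16 reads in CIH and 14 to 25 reads in control, with a log2 fold change of -0.52 (SE 0.38). The groups overlapped in each of these rare genes.

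Of the 20 genes grouped as SNAREs of other membranes, 12 lay above 0 and 8 below, between -0.52 (Stx11) and 0.35 (Snap23). Snap23, the widely expressed relative of Snap25, stood at 10.9, 9.10 and 10.4 CPM in CIH and 8.74, 7.53 and 7.51 CPM in control, a log2 fold change of 0.35 (SE 0.15, edgeR adjusted p = 1.00). The Snap23 groups did not overlap. Stx7, an endosomal syntaxin, stood at 72.5, 80.8 and 86.8 CPM in CIH and 84.8, 90.1 and 102 CPM in control, one of -0.20 (SE 0.12). Stx8, another endosomal SNARE named after its values were seen, overlapped in CPM, with one of 0.31 (SE 0.21), and did not overlap in TPM, at 33.8, 38.8 and 41.0 TPM in CIH and 31.8, 25.7 and 25.1 TPM in control. The Stx8 values therefore differ with the scale used.

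In CPM the groups did not overlap for 5 members, or 6.94%, against 5.70% of all genes tested. Higher in CIH were 3 of them, Syngr2 and Snap23 included (3.05% of all genes), and lower were 2, Syt6 and Vamp8 (2.65% of all genes). Vamp8, named for this reason, encodes an endosomal and secretory granule SNARE and had 39 to 48 reads in CIH and 47 to 51 reads in control, a log2 fold change of -0.12 (SE 0.20). On the TPM scale there were 4 (Syngr2, Snap23, Stx8 and Syt6), or 5.56%, against 6.07% of all genes.

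**Figure D3:**
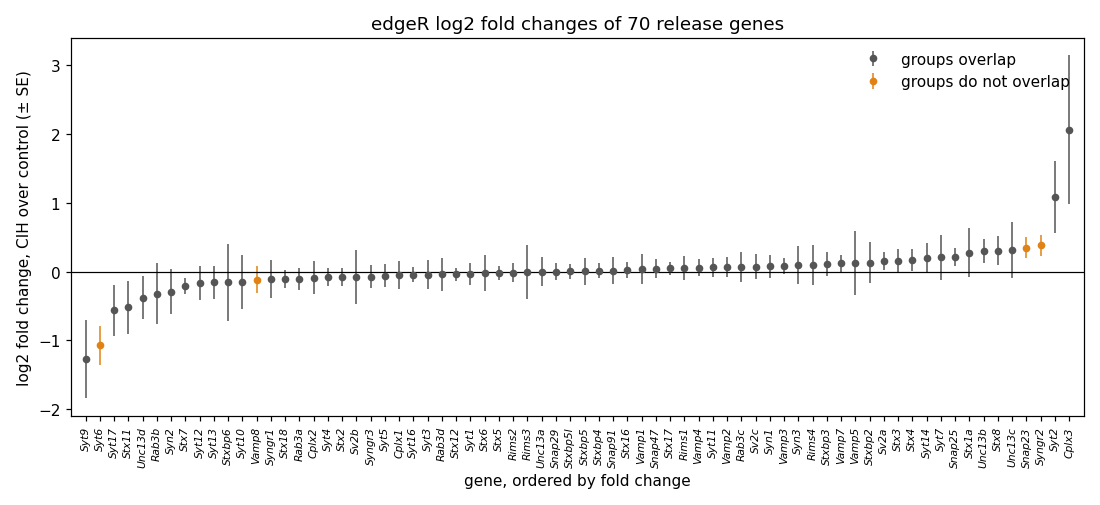
edgeR log2 fold change, CIH over control, with its SE for 70 of the 72 genes in order, orange where the 3 CIH libraries do not overlap the 3 control libraries in CPM. Most genes lie within 0.25 of 0, and the ends of the order (Syt9, Syt6, Syt2 and Cplx3) are rare transcripts with wide errors, apart from the tighter Syt6.

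Variation between libraries of the same group was larger than the difference between groups for most members, as for most genes tested. The group difference in mean log2 CPM exceeded the pooled SD within groups for 14 of 72 members (19.4%), as for 19.8% of all genes tested. The highest TPM was at least 2 times the lowest in 17 members, and the median of this range was 1.55. CIH 3 and control 1 often went together, in all genes as well as in the members. Over all genes no other pair was more often the 2 lowest libraries or the 2 highest. CIH 3 and control 1 were the 2 lowest libraries for 17 members (23.6%, against 13.5% of all genes). They were the 2 highest for 11 members (15.3%), a share near the 14.7% of all genes. The members lowest in both included the synaptic genes Vamp2, Syngr1, Rab3a, Syn1, Cplx1, Sv2b, Rims1 and Stx1a. The members highest in both included Syt7, Cplx2, Stxbp5 (tomosyn, a decoy SNARE that restrains release) and Stxbp6. Stxbp6, which encodes amisyn and was named after its values were seen, stood at 36.8, 52.6 and 124 CPM in CIH and 134, 42.9 and 59.98 CPM in control, a log2 fold change of -0.15 (SE 0.56). CIH 3 and control 1 also had the highest summed oligodendrocyte and dentate markers, given above. The summed level of 8 pyramidal markers was highest in these libraries too, at 898 and 910 TPM against 514 to 733 TPM. That order came from Wfs1, at 533 and 575 TPM against 73.7 to 390 TPM. Mpped1, another of the 8, was lowest in both, at 116 and 103 TPM against 119 to 149 TPM. With the 8 weighted equally on a log2 scale, the mean deviation was highest in CIH 2 (0.251). It was 0.092 in CIH 3 and -0.039 in control 1. For 8 choroid plexus markers CIH 3 and control 1 stood at 67.5 and 64.6 TPM against 4.35 to 28.8 TPM. Most of that was Ttr, at 61.9 and 56.1 TPM, and 2 of the 8 were at 0 in at least 1 library. The equally weighted log2 deviation was also highest in CIH 3 and control 1, at 0.302 and 0.566. The part of any of these lists in these values was not tested.

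**Figure D4:**
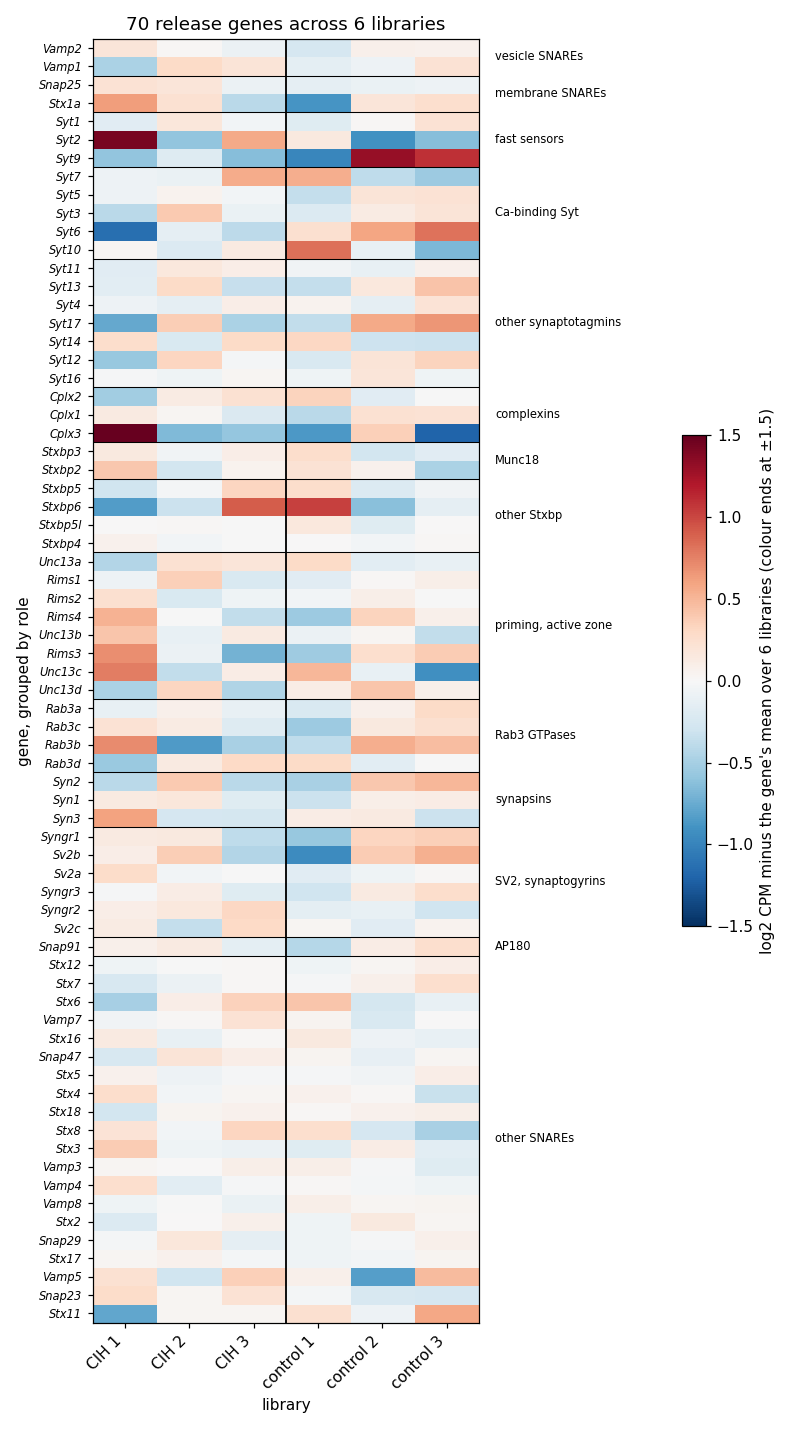
Log2 CPM of 70 of the 72 genes, each minus its mean over the 6 libraries, with genes grouped by role and CIH left of the vertical line; the colour ends at 1.5 log2 units, which Cplx3 in CIH 1 exceeds. CIH 3 and control 1 share a pattern of high Syt7 and Stxbp6 with low Stx1a and Sv2b, while no role group changes colour as a block at the line between CIH and control.

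Leaving out control 1 raised the number of members without overlap to 22 of 72 (30.6%), against 22.4% of all genes, and leaving out both control 1 and CIH 3, chosen after seeing the data, to 26 (36.1%), against 30.5%. No member passed the edgeR test in either case. The number at an unadjusted p under 0.05 was 8 without control 1 (11.1%, against 5.49% of all genes), 7 without CIH 2 (9.72%, against 3.35%), 1 without control 2 (1.39%, against 1.39%) and 1 without control 3 (1.39%, against 0.792%). Without control 1, Syt7 had a log2 fold change of 0.62.

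A second readout was the transcript length implied by each gene's count and FPKM (fragments per kilobase of transcript, scaled to depth), which moves with the mix of isoforms that the authors' quantification assigned. Of the 72 members, 67 had the mean level of 5 TPM and the reads in every library needed for it. None passed limma after Benjamini-Hochberg adjustment over 13212 genes (adjusted p = 1.00 for each), of which 0 passed (0%). At an unadjusted p under 0.05 there were 4 members, or 5.97%, against 3.28% of all genes. Unc13b, whose gene has a long and a short Munc13-2 form, had implied lengths of 3372, 3481 and 3052 bases in CIH and 2893, 2883 and 2699 bases in control, a log2 difference of 0.22 (SE 0.06). Rims4, which encodes a short RIM with only the C-terminal domain, had 4083, 3861 and 4329 bases in CIH and 3647, 3712 and 3743 bases in control, one of 0.14 (SE 0.04). The CIH libraries lay above every control in both genes. Unc13c, a Munc13 of cerebellar granule cells, had 8074, 8170 and 7933 bases in CIH and 8502, 8482 and 8303 bases in control, one of -0.06 (SE 0.02), with CIH below every control. Sv2c, the SV2 paralogue of basal ganglia, had 5427, 4693 and 5393 bases in CIH and 4098, 4696 and 4209 bases in control, one of 0.25 (SE 0.08), with CIH 2 and control 2 crossing. Without overlap were 3 members, or 4.48%, against 5.46% of all genes.

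The implied length changed little in most members, with a median ratio of highest to lowest library of 1.06 for members and for all genes, and reached 1.2 in 15 members. Vamp2 had the widest ratio. Its lengths were 1816, 1008 and 1482 bases in CIH and 1140, 1203 and 1171 bases in control, so its level read differently by scale. In TPM, Vamp2 stood at 730, 1144 and 745 in CIH and 850, 1019 and 1060 in control, and limma on log2 TPM with a pseudocount of 1 gave -0.19 where edgeR on counts gave 0.07. Syt1 ran from 2262 to 2895 bases in CIH and from 1962 to 2598 bases in control, and Snap91 from 1647 to 2177 bases in CIH and from 1898 to 2432 bases in control. Vamp8 and Vamp5 had implied lengths of 215 bases or less in every library, so small differences in length move their TPM strongly.

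**Figure D5:**
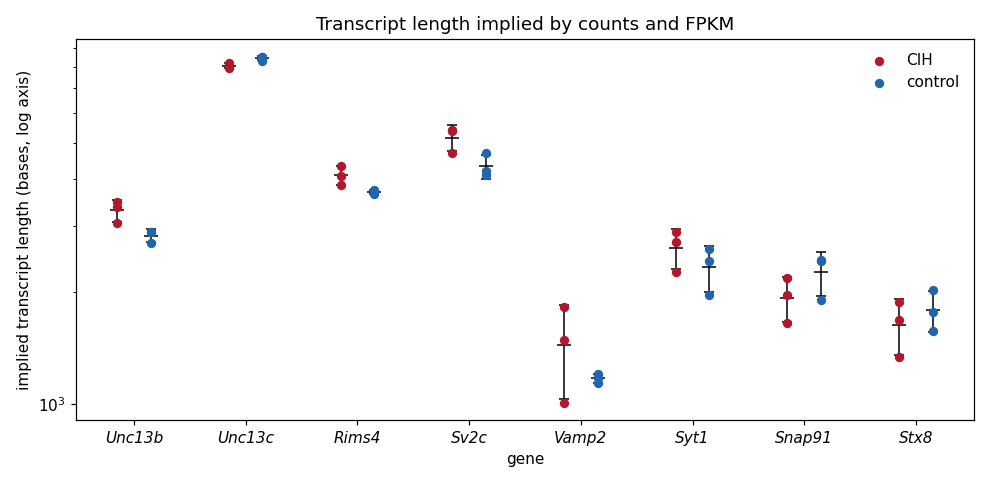
Transcript length in bases, on a log axis, implied by counts and FPKM for 8 genes, with each point 1 library (red CIH, blue control) and the black bar the mean and SD of 3 libraries. Unc13b and Rims4 have all CIH points above the controls and Unc13c all below, while Vamp2 scatters from 1008 to 1816 bases within CIH.

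Other genes of the vesicle cycle, taken from 4 lists chosen by known function, gave no call either. Of 58 listed genes 57 were tested; 25 lay above 0 and 32 below, 0 passed the edgeR test over all genes, and 1 of the 57 had an unadjusted p under 0.05, a share near the 1.78% of all genes. That gene was Slc32a1, the vesicular GABA transporter, with a log2 fold change of -0.38 (SE 0.15, edgeR adjusted p = 1.00); it is also 1 of the 8 interneuron markers. In the list of vesicle membrane and transmitter-loading genes 2 of 14 lay above 0 and 12 below, with a median of -0.05. Besides Slc32a1, Synpr stood at -0.46 (SE 0.26) and Slc17a6, a vesicular glutamate transporter, at 0.49 (SE 0.53). Slc17a6 was at 33.7 CPM in CIH 1, 6.26 and 14.7 CPM in the other CIH libraries and 11.7 to 14.3 CPM in control. Among 14 active zone scaffolds 7 lay above 0 and 7 below, with Pclo, which encodes the giant scaffold piccolo, at 0.16 (SE 0.13), Cask at 0.11 (SE 0.11) and Apba2 at -0.24 (SE 0.26). Among 13 fusion cofactors and effectors 8 lay above 0 and 5 below. The calcium sensor gene Doc2b stood at -0.55 (SE 0.39), with 44.4 CPM in CIH 1, 134 CPM in CIH 2 and CIH 3 and 148 to 162 CPM in control. Cadps, a priming factor of dense-core vesicles, was at 0.18 (SE 0.14) and Cadps2 at -0.27 (SE 0.24). Among 16 endocytosis genes 8 lay above 0 and 8 below, with Ston1 at -0.20 (SE 0.19), Bin1 at 0.12 (SE 0.13) and Amph, which encodes amphiphysin, at -0.18 (SE 0.20). The edgeR adjusted p was 1.00 for every gene named here.

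Some members share reads with other genes. Counts were not whole in at least 1 library for 13 members, among them Syt1, Syn1, Syn3, Rims2, Snap23, Stx7, Cplx3 and Unc13c, so their counts rest in part on how the authors' quantification divided reads.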

How the data were processed

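Hippocampal RNA libraries, 3 CIH and 3 control, were analysed; the small RNA table was not used here. Tools named in the submitters' processing notes are RSEM 1.2.12, HISAT2 2.2.0 and Bowtie2 2.2.5, and the build is Rnor_6.0; no annotation or strand setting is named in the sources used. Per the file headers, the authors deposited estimated counts, TPM and FPKM. Of the deposited estimated counts 16.0% were not whole, and all were rounded before testing. The authors' TPM served for levels, paralogue shares and an alternative test. The authors' FPKM served, with counts and library totals, to give an implied transcript length.

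edgeR 4.0.16 in R 4.3.3 gave the main comparison (TMM factors, filterByExpr, quasi-likelihood test over all genes), with a Benjamini-Hochberg threshold of 0.05; each SE is the fold change divided by the root of F. Lengths were tested with limma 3.58.1 over genes with a mean of at least 5 TPM. Both were tested on simulated data. Alternatives were DESeq2 1.42.0, RLE factors, all genes unfiltered, limma on log2 TPM with a pseudocount of 1 or 0.1, the replicate block and leaving out libraries. Of 72 members, 72 passed the low-count filter.

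The members and lists were chosen with earlier results of these data known. Chosen for naming were the 8 members with the smallest p at a mean log2 CPM above 1. So were 17 core genes and the 3 highest and 3 lowest members by TPM. From each vesicle-cycle list the 3 genes with the smallest p were chosen. Others were named after their values were seen. Figures used matplotlib 3.10.9. Values of 2 members are not reported here; both stay in the counts and sums.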

Additional observations from a re-analysis of the deposited data

How the results depend on the processing

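No member passed in any alternative run. All genes past the threshold numbered 0 with edgeR, 9 with DESeq2, 1 with limma on TPM at either pseudocount, and 0 to 1 when 1 library was left out. Members at an unadjusted p under 0.05 numbered 3, and 1 to 8 (1.39% to 11.1%) when 1 library was left out, while the share of all genes ran from 0.792% to 5.49%. Members without overlap numbered 5, and 8 to 22 (11.1% to 30.6%) when 1 library was left out, while the share of all genes ran from 9.79% to 22.4%; the members' share was below that of all genes without CIH 1 (11.1% against 14.3%), CIH 2 (13.9% against 18.8%), CIH 3 (11.1% against 12.5%) or control 2 (11.1% against 11.6%). They numbered 26 without control 1 and CIH 3 together, a setting chosen after seeing the data, as was centring the lengths. Fewer libraries overlap less often by construction. The median log2 fold change of the members was -0.01 to 0.04 when 1 library was left out. Genes with a changed implied length numbered 0, and 0 to 1 when 1 library was left out. Of 31 named members, 16 kept their direction in every alternative run, among them Syt6, Syngr2, Snap23 and Snap25. The other 15 turned direction when 1 library was left out, with log2 fold changes of -0.23 to 2.73 for Cplx3, -0.13 to 0.069 for Syt1, -0.043 to 0.62 for Syt7, -0.11 to 0.23 for Vamp1, -0.034 to 0.12 for Vamp2, -0.0036 to 0.51 for Stx1a, -0.12 to 0.18 for Unc13a, -0.14 to 0.17 for Rims1, -0.23 to 0.048 for Cplx1, -0.24 to 0.11 for Cplx2, -0.23 to 0.023 for Rab3a, -0.050 to 0.17 for Syn1, -0.41 to 0.18 for Sv2b, -0.068 to 0.29 for Stxbp2 and -0.83 to 0.47 for Stxbp6. Limma on TPM turned Vamp2 (-0.19 at both pseudocounts), Unc13a (-0.073 at both) and Sv2b (0.024 at a pseudocount of 1, 0.025 at 0.1); RLE factors and DESeq2 turned Unc13a (-0.0029 in both). Without control 1 and CIH 3 together Vamp1 stood at -0.12. For these turns the cause was not tested. With the replicate block 0 genes passed, Unc13a stood at -0.012 and Sv2b at 0.019, and 3 members (Syt6, Syt2 and Syt17) had an unadjusted p under 0.05, against 1.77% of all genes; Syngr2 and Snap23 did not. Replicate numbers gave no sign of pairing, since deviations of libraries with the same number correlated at -0.222, -0.0457 and -0.176, and CIH 3 correlated best with control 1 (0.446), a hint from the data and not the design.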
